A study of Mus musculus with 5 samples.

Results

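Of 8 genes of endothelial junctions, receptors and surface antigens in lung, namely Pecam1, Tmem100, Tek, Tie1, Kdr, Flt1, Vwf and Ly6c1, 6 had values that could be analysed. The genes were chosen by symbol in the platform's probe annotation, and a gene was kept where its feature had values on at least 4 of the 5 arrays. The 6 stand among 9039 named genes measured, or 10081 genes and unnamed features. Kdr, the main receptor for vascular endothelial growth factor (VEGF), had 1 feature, for which the table holds no value on any array. Vwf, the clotting factor stored in endothelial granules, has no entry in the annotation used here. Pecam1, Tmem100, Tek, Tie1, Flt1 and Ly6c1 had 1 feature each with values on all 5 arrays.

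The data are 2-colour arrays of lung RNA from 129svJ mice, an inbred strain, that had received bleomycin, an antibiotic that breaks DNA and injures the lung. Channel 1 of each array carried amplified RNA from 1 of 5 bleomycin-treated mice, and channel 2 carried amplified RNA pooled from control 129svJ mice, which served every array. The sources used here do not give dose, route, time, age, sex or the size of the pool. Nothing but bleomycin is named as differing between the mice and the pool, and no genotype is given beyond the strain. Arrays held values for 11350 to 12083 of 17280 features, and Pearson's r across genes lay between 0.73 and 0.86 for every pair of arrays, which share the pool.

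Endothelial cells line all blood vessels and make up much of the cell mass of the lung, whose capillaries spread over the alveolar walls. Their identity and survival depend on tyrosine kinase receptors for VEGF and the angiopoietins, on BMP signals that keep vessels quiescent, and on adhesion proteins that seal the borders between cells. In bulk tissue, a difference in the number of endothelial cells and a difference in RNA per endothelial cell cannot be told apart. Each value below is a log ratio of the 2 channels, centred on the median of its array and taken as log2, and folds would be larger if the logarithm were natural. No source states the log base, the dyes or which channel is the numerator, so values are given by their side of 0, without saying whether the bleomycin mouse or the pool was higher. Only ratios are at hand, so absolute levels of these genes, and the presence of endothelium as such, could not be read.

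All 6 measured genes passed the test of the mean ratio against 0 (limma, adjusted p under 0.05), 5 above 0 and 1 below 0. That share has to be read against a background of 49.6% of all genes and unnamed features called, 25.8% above 0 and 23.9% below 0. Of the 6 genes, 4 were called with at least a 2-fold difference, against 5.59% of all genes. All 5 mice lay on 1 side of 0 for each of the 6 genes, as they did for 58.6% of the 8210 genes and unnamed features with values on all arrays. The median of the 6 mean log2 ratios was 1.21, against −0.0066 over everything tested. The 6 were chosen with results of these data known, so these counts describe them and test nothing about endothelium as a whole.

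Pecam1 encodes the adhesion molecule CD31 of endothelial cell borders, which platelets and leukocytes also carry. Its log2 ratio was 2.03 in mouse 1, 2.61 in mouse 2, 2.795 in mouse 3, 2.28 in mouse 4 and 2.54 in mouse 5. All mice were far above 0, with mouse 1 lowest and mouse 3 highest. The mean was 2.45 ± 0.30 (SD, n = 5; adjusted p = 2.32e-05), a 5.47-fold difference if the logarithm is base 2. By mean log2 ratio it was the fourth highest of everything tested, and 0.208% of genes had a mean farther from 0.

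Tmem100 encodes a small membrane protein of endothelium, induced by BMP9 and BMP10 through the receptor ALK1 and needed for vessel development in mice. The log2 ratio was 2.22, 2.74, 2.03, 2.49 and 2.11 in mice 1 to 5. All mice lay above 0 within a range of 0.713, and here mouse 2 was highest and mouse 3 lowest. The mean was 2.32 ± 0.29 (SD, n = 5; adjusted p = 2.41e-05), a 4.98-fold difference. Pecam1 exceeded Tmem100 by 0.13 ± 0.44 on average but in only 2 of 5 mice, so the order of these neighbours is not settled beyond the spread. Tmem100 lay above the next gene, Tek, in all 5 mice, by 0.78 ± 0.48.

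**Figure D1:**
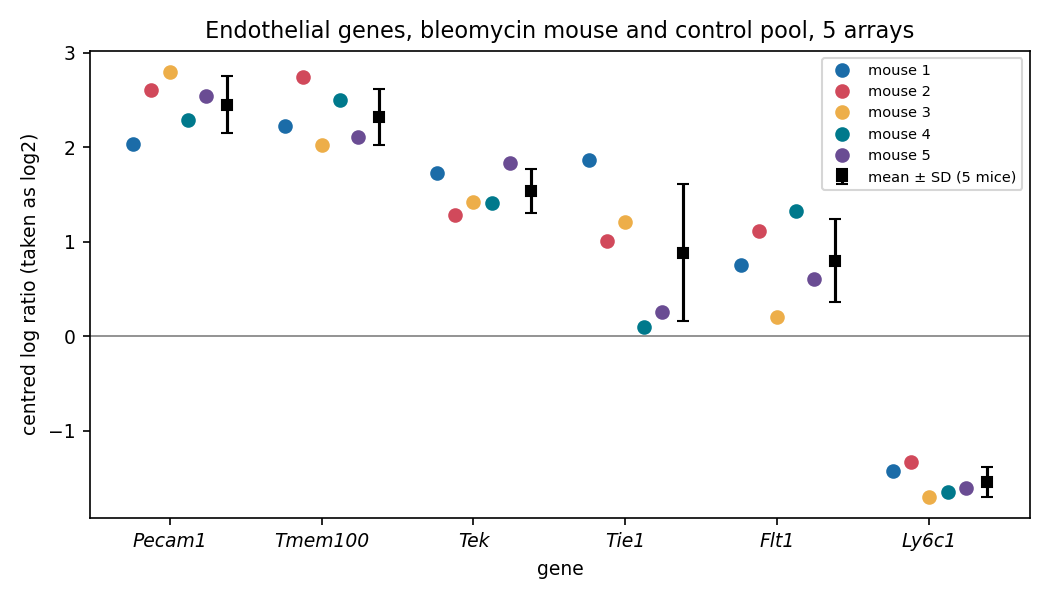
Centred log ratios (vertical axis, taken as log2) of the 6 measured endothelial genes, with a coloured point per mouse and the mean ± SD of 5 mice in black. Pecam1 and Tmem100 lie between 2.03 and 2.795 in every mouse, Tie1 spreads from 0.094 to 1.86, and Ly6c1 lies between −1.695 and −1.33.

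Tek encodes TIE2, the tyrosine kinase receptor that binds angiopoietins and keeps mature vessels stable. The log2 ratio was 1.73, 1.28, 1.43, 1.41 and 1.84 in mice 1 to 5. Mice 5 and 1 were highest and mouse 2 lowest, and the range of 0.558 was the narrowest of the 5 genes above 0. The mean was 1.54 ± 0.24 (SD, n = 5; adjusted p = 4.23e-05), a 2.90-fold difference. Only 1.69% of genes had a mean farther from 0.

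Tie1 encodes the sister receptor of TIE2, which binds no angiopoietin strongly itself and modulates TIE2 within a shared complex. The log2 ratio was 1.86 in mouse 1, 1.01 in mouse 2 and 1.205 in mouse 3, but 0.094 in mouse 4 and 0.253 in mouse 5. Mice 1 to 3 were thus clearly above 0 and mice 4 and 5 close to it. The mean was 0.88 ± 0.72 (SD, n = 5; adjusted p = 0.0222), a 1.85-fold difference. The SD between mice exceeded that of 98.9% of genes, against a median SD of 0.16 over all genes. The call did not hold without mouse 2 (adjusted p = 0.0658) or without mouse 3 (adjusted p = 0.0728), nor by a one-sample test without moderation of the variances (adjusted p = 0.0988) or when a 1.2-fold minimum was required (adjusted p = 0.0965).

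The ratios of the 2 receptors were also compared within each mouse. Tek minus Tie1 was −0.13 in mouse 1, 0.27 in mouse 2, 0.22 in mouse 3, 1.32 in mouse 4 and 1.58 in mouse 5. Tek had the higher ratio in 4 of 5 mice, and the excess was large in mice 4 and 5. It averaged 0.65 ± 0.75 (SD, n = 5; exact two-sided sign-flip permutation test, p = 0.125), where 5 arrays allow no p below 0.0625. A difference between Tek and Tie1 was therefore not detectable by this test. The like comparison of Kdr with Flt1 could not be made without values for Kdr.

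Flt1 encodes VEGF receptor 1, which binds VEGF-A and placental growth factor tightly and, in soluble form, acts as a decoy. The log2 ratio was 0.753, 1.12, 0.208, 1.32 and 0.601 in mice 1 to 5. Mouse 4 was highest, where Tie1 was lowest, and mouse 3 lowest, where Tie1 was second highest. The mean was 0.80 ± 0.44 (SD, n = 5; adjusted p = 0.00497), a 1.74-fold difference, and its SD exceeded that of 95% of genes. Tie1 minus Flt1 averaged 0.083 ± 0.98 and was positive in 2 of 5 mice, so these neighbours did not differ beyond their spread.

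Ly6c1 encodes a GPI-anchored antigen of the Ly6 family found on lung endothelium, on monocytes and on some T cells. It was the only one of the 6 below 0. The log2 ratio was −1.42, −1.33, −1.695, −1.65 and −1.604 in mice 1 to 5. The mice lay within 0.363 of each other, the narrowest range of the 6. The mean was −1.54 ± 0.16 (SD, n = 5; adjusted p = 2.32e-05), a 2.91-fold difference of nearly the same size as that of Tek but on the other side of 0. Flt1, the nearest of the others, lay above it in all 5 mice, by 2.34 ± 0.40. The gene has a close paralogue, Ly6c2, a monocyte antigen without a measured feature here, and the feature's sequence was not used, so hybridisation of Ly6c2 RNA to it was not tested.

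A stricter setting treated the pool as if it were a single control mouse that varied as the bleomycin mice did. Then 4 of the 6 genes passed, against 5.09% of all genes. In that setting Pecam1 and Ly6c1 passed at adjusted p = 0.0103 each, Tmem100 at adjusted p = 0.0106 and Tek at adjusted p = 0.0162. Tie1 (adjusted p = 0.456) and Flt1 (adjusted p = 0.279) did not. In a separate limma test with a required size of at least 1.2-fold, 5 of the 6 passed, against 18.3% of all genes, and Tie1 did not. The limma test above treats the pool as fixed and leaves out the spread between control mice.

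**Figure D2:**
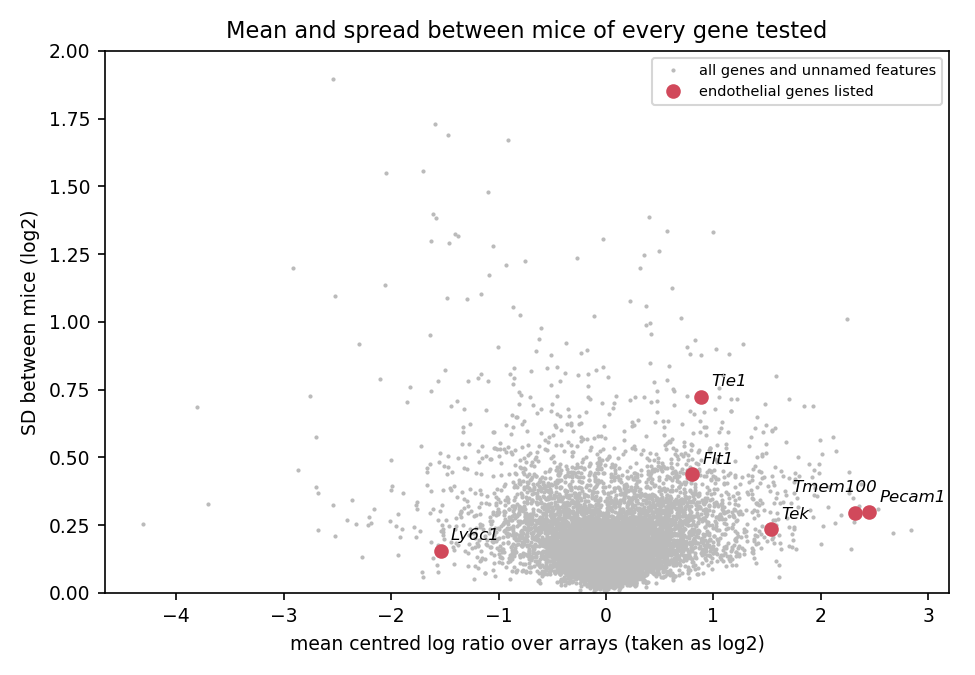
Mean centred log ratio over arrays (horizontal axis, taken as log2) against the SD between mice (vertical axis) for all 10081 genes and unnamed features in grey, 7 of which lie above the plotted range, with the 6 endothelial genes in red. Pecam1 and Tmem100 sit at the right edge, Ly6c1 on the left with a small SD, and Tie1 high up with an SD of 0.72.

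Upstream sequences are shown for the 3 receptor genes above 0 and for Ly6c1 below 0, since these 4 measured genes have entries in the RefSeq promoter table and lie on both sides of 0. They are the 250 bases before the transcription start in assembly GRCm38.p6, 5′ to 3′ on the gene's strand. Tek lies at chr4:94739039-94739288 on the plus strand. Tie1 lies at chr4:118489850-118490099, Flt1 at chr5:147726012-147726261 and Ly6c1, for 1 of 2 starts in the table, at chr15:75048838-75049087, all on the minus strand. Capitals mark GGAA, the core bound by ETS transcription factors, and TTCC, the same core on the opposite strand.
Tek: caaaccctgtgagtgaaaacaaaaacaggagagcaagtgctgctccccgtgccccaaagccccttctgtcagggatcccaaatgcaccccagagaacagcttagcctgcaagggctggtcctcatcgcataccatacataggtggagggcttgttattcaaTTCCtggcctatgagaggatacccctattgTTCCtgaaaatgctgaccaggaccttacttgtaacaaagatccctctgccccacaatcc
Tie1: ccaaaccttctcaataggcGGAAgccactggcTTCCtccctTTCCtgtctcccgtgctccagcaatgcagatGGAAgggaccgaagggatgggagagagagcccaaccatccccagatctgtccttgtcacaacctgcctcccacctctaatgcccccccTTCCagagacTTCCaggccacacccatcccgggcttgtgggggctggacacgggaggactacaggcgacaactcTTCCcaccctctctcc
Flt1: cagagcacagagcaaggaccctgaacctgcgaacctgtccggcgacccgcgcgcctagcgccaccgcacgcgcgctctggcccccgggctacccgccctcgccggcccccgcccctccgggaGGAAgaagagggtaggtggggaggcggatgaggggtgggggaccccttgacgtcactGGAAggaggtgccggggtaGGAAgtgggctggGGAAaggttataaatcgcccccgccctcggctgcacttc
Ly6c1: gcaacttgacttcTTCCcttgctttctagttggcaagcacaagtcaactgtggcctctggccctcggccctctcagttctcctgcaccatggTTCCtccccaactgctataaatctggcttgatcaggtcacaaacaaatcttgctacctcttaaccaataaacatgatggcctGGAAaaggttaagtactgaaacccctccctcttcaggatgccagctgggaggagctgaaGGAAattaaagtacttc

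The cores numbered 2 in Tek, 7 in Tie1, 4 in Flt1 and 4 in Ly6c1, counting both strands. A window of this length held at least 1 core in 93.4% of the 32851 promoters in the table, with a median of 3, so their presence does not set these genes apart. The second Ly6c1 start in the table, whose window overlaps the one shown, had 6. All 4 cores of Flt1 lie on the gene's own strand and both of Tek's on the opposite strand. The longer ACAGGAA, which contains GGAA and resembles the paired forkhead and ETS motif of endothelial enhancers, matched once in Tie1 and in none of the other 3 windows. It was found on either strand in 7.2% of all promoters. These matches are letters in a window and say nothing of binding.

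Of 12 other genes listed for the VEGF and angiopoietin system, 8 were measured, 2 passed above 0, 2 below 0 and 4 did not pass, and their median log2 ratio was 0.017. That is close to the background of 25.8% called above 0 and 23.9% below 0. Among ligands, Pgf, placental growth factor, which binds Flt1 but not Kdr, stood at −1.27, −1.52, −1.33, −1.68 and −1.33 in mice 1 to 5. All mice were well below 0, on the opposite side from its receptor Flt1, and the mean was −1.43 ± 0.17 (SD, n = 5; adjusted p = 2.80e-05). Vegfa, the main ligand of both Kdr and Flt1, stood at 1.84, 0.774, −0.571, 0.716 and 1.17 in the same order. Mouse 3 alone was below 0, and the mean of 0.78 ± 0.88 did not pass (adjusted p = 0.0646). Vegfa passed without mouse 3 at a mean of 1.12 (adjusted p = 0.00654) and after scaling between arrays (adjusted p = 0.0475). In every other setting tried it did not pass. The adjusted p then lay between 0.0586, with features on all 5 arrays required, and 0.592, with the pool as 1 control mouse.

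Vegfb, another Flt1 ligand, averaged −0.082 ± 0.40, and Vegfc and Vegfd, ligands of the lymphatic receptor Flt4, averaged −0.098 ± 0.26 and 0.12 ± 0.21, none of which passed. Angpt2, the context-dependent antagonist of TIE2 released by activated endothelium, averaged 0.37 ± 0.34 (adjusted p = 0.04). Mouse 3 stood at 0.937 and the others between 0.088 and 0.344, and the call was lost without mouse 1, 2 or 5 (adjusted p = 0.0764, 0.0843 and 0.0551), while the mean was 0.23 without mouse 3. Flt4 averaged −0.54 ± 0.13 (adjusted p = 0.000633) and Ptprb, the endothelial phosphatase that restrains TIE2, 0.39 ± 0.13 (adjusted p = 0.00244), which missed the threshold with features on at least 3 arrays kept (0.24, adjusted p = 0.11). Flt4 lay on the side opposite to Flt1, Tek and Tie1.

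Other junction and surface genes of endothelium lay mostly on the side of Pecam1. Of 19 listed, 13 were measured, 10 passed above 0, 0 below 0 and 3 did not pass, with a median log2 ratio of 0.53, where 25.8% of everything tested passed above 0. Icam2, an adhesion molecule of resting endothelium, stood at 1.03, 0.965, 0.628, 1.73 and 1.16 in mice 1 to 5, and its mean was 1.102 ± 0.40 (adjusted p = 0.000942). Cldn5, the claudin of endothelial tight junctions, averaged 0.94 ± 0.45 (adjusted p = 0.00271), between 0.255 in mouse 3 and 1.46 in mouse 5. Cd34, a sialomucin of endothelial and progenitor cells, averaged 0.76 ± 0.16 (adjusted p = 0.000233). Tjp1, the scaffold protein ZO-1 of epithelial and endothelial junctions, averaged 0.798 ± 0.54 (adjusted p = 0.0117), but mouse 5 stood at −0.086. None of the 13 had a mean as far from 0 as Pecam1, Tmem100 or Tek, the highest being that of Icam2. Mouse 3, highest for Pecam1, was lowest for Icam2, Cldn5 and Cd34, but highest for Tjp1.

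Genes of the BMP pathway, in which Tmem100 acts, had 8 measured members, of which 5 passed above 0, 0 passed below 0 and 3 did not pass, with a median of 0.28, against 25.8% of everything tested that passed above 0. Acvrl1, the receptor ALK1, stood at 1.64, 0.762, 0.819, 0.749 and 1.19 in mice 1 to 5, with a mean of 1.03 ± 0.38 (adjusted p = 0.00103). Its partner Bmpr2, the type II BMP receptor mutated in heritable pulmonary hypertension in humans, averaged 0.62 ± 0.11 (adjusted p = 0.000252). The ligand gene Bmp4 and the shared signal transducer Smad4 averaged 0.33 ± 0.26 (adjusted p = 0.0268) and, on 4 arrays, 0.29 ± 0.13 (adjusted p = 0.0181). Bmp4 missed the threshold without mouse 1, 4 or 5 and Smad4 without mouse 3, and the count was 3 without mouse 4 or mouse 5. Both receptors lay on the side of Tmem100 in all mice, and their ratios were well below its own.

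Transcription factors of endothelium had 14 measured members, of which 7 passed above 0, 2 passed below 0 and 5 did not pass, with a median of 0.23, against 25.8% above 0 and 23.9% below 0 of everything tested. Ets1, an ETS factor of endothelial and lymphoid cells, stood at 2.05, 2.08, 2.195, 2.51 and 1.81 in mice 1 to 5, with a mean of 2.13 ± 0.26 (adjusted p = 2.33e-05). Gata2, a factor of endothelial and blood progenitor cells, averaged 1.36 ± 0.35 (adjusted p = 0.00023), Klf2, which responds to blood flow, 0.78 ± 0.33 (adjusted p = 0.002), and Foxf1, a lung mesenchymal and endothelial factor, 0.94 ± 0.58 (adjusted p = 0.00783). The genes that passed below 0 were Epas1 at −0.21 ± 0.16 and Foxc1 at −0.15 ± 0.06. Sox7, Sox17 and Sox18 did not pass, at −0.198, 0.16 and 0.10. Without mouse 4 the list had 5 calls, against 9 with all mice.

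**Figure D3:**
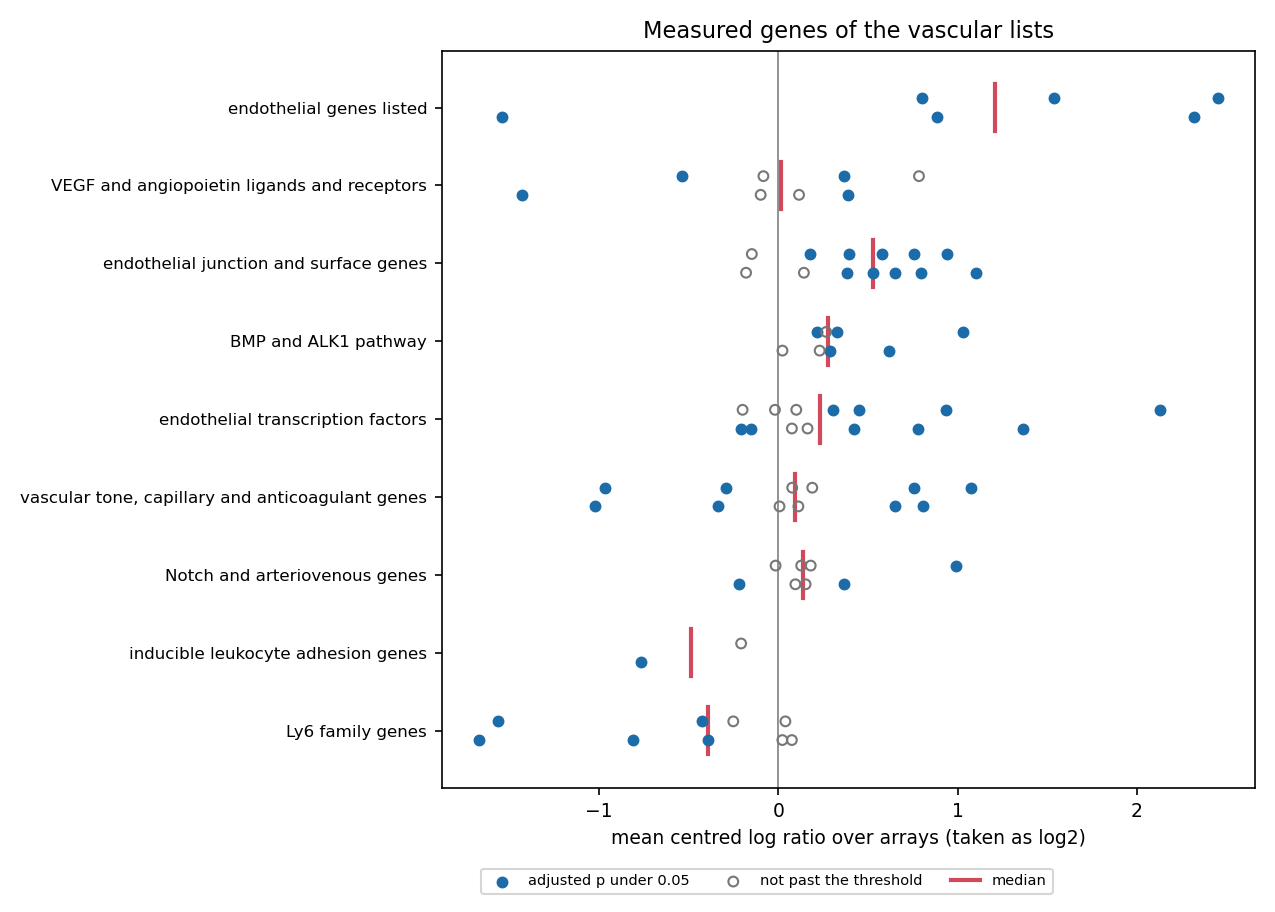
Mean centred log ratio over arrays (horizontal axis, taken as log2) of each measured gene, by list, with filled points for adjusted p under 0.05, open points for genes not past the threshold and a red bar at the median. The 6 endothelial genes are in the top row, and their median of 1.21 lies to the right of every other list's, the next being 0.53 for junction and surface genes.

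Genes of vascular tone, capillaries and anticoagulation had 12 measured members, of which 4 passed above 0, 4 passed below 0 and 4 did not pass, with a median of 0.095. These shares are not far from the 25.8% and 23.9% of everything tested. S1pr1, the sphingosine 1-phosphate receptor that tightens endothelial junctions, averaged 1.07 ± 0.36 (adjusted p = 0.000697) and Thbd, the anticoagulant thrombomodulin, 0.81 ± 0.22 (adjusted p = 0.00041). On the other side stood Procr, the endothelial protein C receptor, at −1.02 ± 0.33 on 4 arrays (adjusted p = 0.0014), and Ace, the angiotensin-converting enzyme of lung capillaries, at −0.96 ± 0.11 (adjusted p = 4.33e-05). Ly6c1 was thus not the only gene of endothelium below 0, and Thbd and Procr, which act together on protein C, lay on opposite sides. Of 8 measured Notch and arteriovenous genes, 2 passed above 0 and 1 below 0. Notch4, the endothelial Notch receptor, averaged 0.992 ± 0.24 (adjusted p = 0.000224), its ligand Dll4 0.37 ± 0.23 (adjusted p = 0.013), and the venous factor Nr2f2 −0.22 ± 0.16 (adjusted p = 0.037), which was lost without mouse 1, 2, 3 or 5 and whose 2 features averaged −0.297 and −0.137.

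Of 6 listed leukocyte adhesion molecules that endothelium displays in inflammation, 2 were measured. Of these, 1 passed, below 0, where 49.6% of everything tested passed on either side and 23.9% below 0. Vcam1 averaged −0.76 ± 0.34 (adjusted p = 0.00225) and lay on the side of Ly6c1, between −1.14 and −0.422. The other, the selectin gene Sele, did not pass (adjusted p = 0.08), but without mouse 3 both passed. The share of everything tested that passed without mouse 3 was not counted.

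Relatives of Ly6c1 in the Ly6 family also lay below 0 where they passed. Of 18 listed, 9 were measured, 5 passed below 0, 0 above 0 and 4 did not pass, with a median of −0.39. Over everything tested, 23.9% passed below 0 and 49.6% on either side. Ly6d, an antigen of squamous epithelium and lymphoid precursors, stood at −2.33, −1.52, −1.38, −1.23 and −1.89 in mice 1 to 5, with a mean of −1.67 ± 0.45 (adjusted p = 0.00024). Psca, an epithelial surface antigen, averaged −1.56 ± 0.78 on 4 arrays (adjusted p = 0.00541), Ly6f −0.81 ± 0.21 (adjusted p = 0.000336) and Ly6g6e −0.43 ± 0.22 on 4 arrays (adjusted p = 0.0122). Ly6d and Psca had means of the size of that of Ly6c1 with a wider spread between mice. When features on all 5 arrays were required, 3 of the family passed.

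Markers of other cells that carry these proteins were set beside them. For these short lists, the background was 25.8% of everything tested called above 0 and 23.9% called below 0. Of 10 listed monocyte markers 4 were measured, and 3 passed below 0, on the side of Ly6c1. The mean of all 4 measured, 1 of which did not pass, lay between −1.41 and −0.85 over the 5 mice. Cx3cr1, a chemokine receptor of monocytes and macrophages, averaged −2.19 ± 0.26 (adjusted p = 2.32e-05), Fcgr1, a high-affinity Fc receptor, −1.47 ± 0.46 (adjusted p = 0.000472), and F13a1, coagulation factor XIII, −0.63 ± 0.54 (adjusted p = 0.0285; lost without mouse 2 or 4, and −0.39 without mouse 1). Of 7 macrophage markers 6 were measured, 5 passed below 0 and 1 above 0, with a list mean between −1.95 and −0.92, led by the complement genes C1qb at −2.68 ± 0.23 and C1qa at −2.11 ± 0.79 and the scavenger receptor Marco at −1.265 ± 0.62. Of 8 T cell markers 6 were measured and 1, Cd2, passed, at 0.37 ± 0.31, with a list mean between −0.055 and 0.19. It passed at adjusted p = 0.0307 and missed the threshold when mouse 1, 3 or 4 was left out, which left a count of 0. The part of monocytes in the Ly6c1 ratio was not tested.

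Platelets carry the protein of Pecam1. Of 12 platelet and megakaryocyte markers 4 were measured, 3 passed below 0 and 0 above 0, against 23.9% and 25.8% of everything tested. Their list mean lay between −0.742 and −0.13 over the mice, on the side opposite to Pecam1. Clec1b averaged −0.85 ± 0.44 (adjusted p = 0.00401), Pf4 −0.45 ± 0.45 (adjusted p = 0.049) and Gp9 −0.31 ± 0.19 (adjusted p = 0.0155), and without mouse 3 the list had 1 call. Pf4 missed the threshold without mouse 2, 3 or 5, and Gp9 without mouse 3. Without mouse 1, at −1.201, the mean of Pf4 was −0.267. The part of platelets in the Pecam1 ratio was not tested. Type 1 alveolar cells share the capillary wall with endothelium. All 8 of their listed markers were measured, 6 passed above 0 and 0 below 0, against 25.8% and 23.9% of everything tested. The list mean lay between 0.708 and 1.35 over the mice. Rtkn2 averaged 1.93 ± 0.69, Sema3e, a guidance protein, 1.604 ± 0.27 and Ager, the receptor RAGE that marks type 1 cells, 1.46 ± 0.60. Aqp5, at −0.075 ± 0.13, and Pdpn, at −0.12 ± 0.37, did not pass and had means slightly below 0. The type 1 markers that passed thus lay on the side of Pecam1, Tmem100 and Tek. The part of type 1 cells in those results was not tested.

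**Figure D4:**
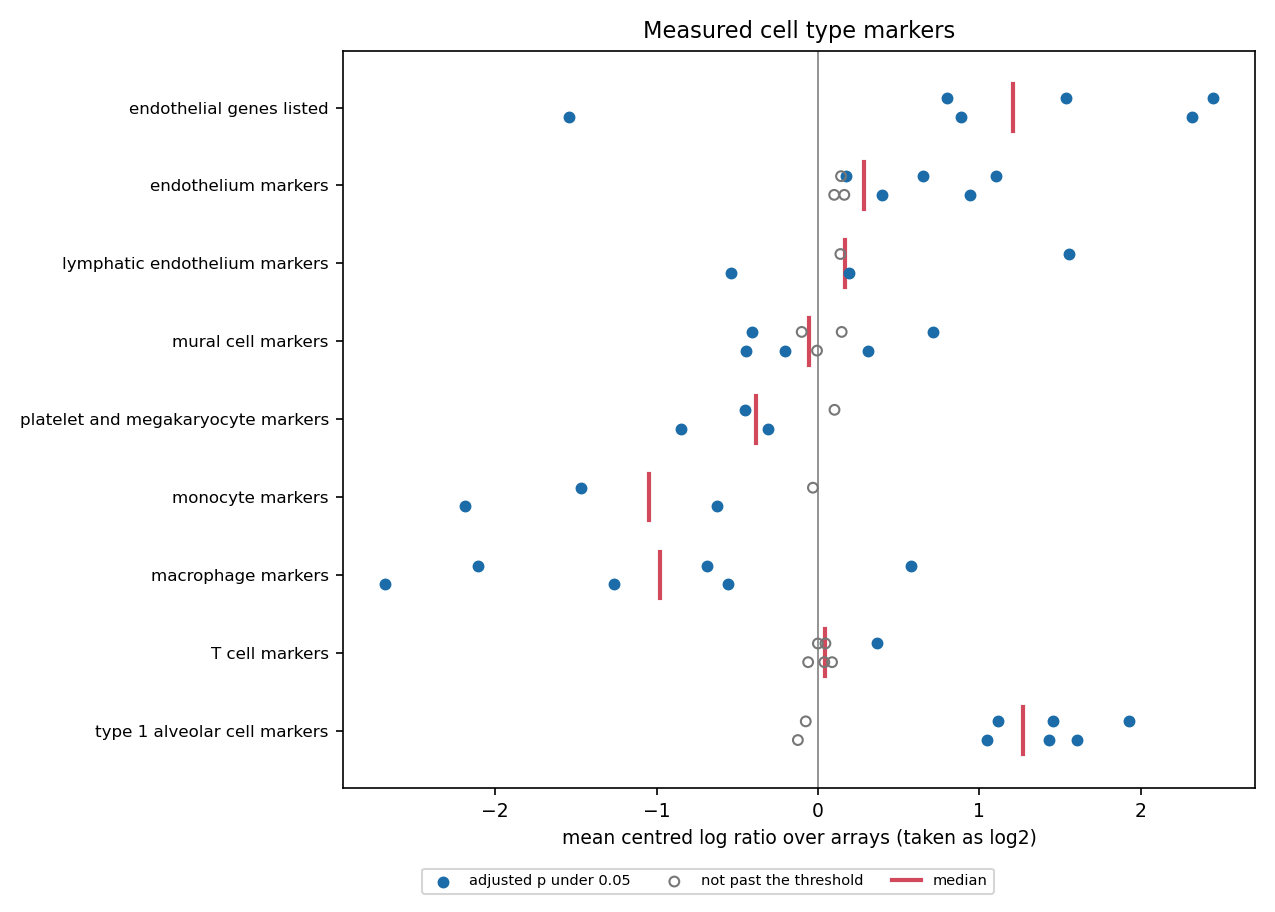
Mean centred log ratio over arrays (horizontal axis, taken as log2) of the measured markers of each cell type, with filled points for adjusted p under 0.05, open points for genes not past the threshold and a red bar at the median. Monocyte and macrophage markers have medians of −1.05 and −0.98, and type 1 alveolar markers a median of 1.27 beside the 1.21 of the endothelial genes in the top row.

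Of 12 other endothelial markers listed, 8 were measured, with a median of 0.29. Of these, 5 passed above 0, 0 below 0 and 3 did not pass, against 25.8% above 0 and 23.9% below 0 of everything tested. Their list mean lay between 0.32 and 0.63 over the mice. All 8 also stand on the lists described above, Icam2 and Cldn5 among them, so they are not separate evidence. Ramp2, which forms the adrenomedullin receptor, averaged 0.65 ± 0.44 (adjusted p = 0.0121). The mean ratios of Pecam1, Tmem100 and Tek were larger than the mean of any of these 8 markers.

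Likeness of pattern was measured as the Euclidean distance between centred log2 ratios over the 5 arrays, among 7436 other named genes with values on all of them. Nearest to Pecam1 was the potassium channel gene Kcnk2 at 0.736, before Tnks2 and Tspan13. Nearest to Tmem100 were the flavin monooxygenase genes Fmo2 and Fmo1 at 0.429 and 0.534, then Tnks2. For Tek they were Fasn, Aplp2 and Acer2, from 0.313 to 0.416, and for Ly6c1 Calm3, Cdkn1a and Melk, from 0.294 to 0.311. The uneven pattern of Tie1 was matched most closely by the laminin gene Lama3 at 0.293, with Pon2 next at 0.645, and that of Flt1 by Rsrp1 at 0.326, 2510039O18Rik and Colec12. Between members the smallest distance was 0.935, between Pecam1 and Tmem100, and Tek and Tie1 were 2.09 apart, so no member had another as its nearest gene.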

How the data were processed

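The deposited values are log ratios, 1 per feature and array, with deposited array medians from 0.011 to 0.026, and they were taken as log2, since no base is stated. The sources used here do not state the background correction, normalization, scanner or dyes. Precision is limited by the number of arrays, and brightness over background was not analysed here.

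Each array was centred on its median, features on at least 4 arrays were kept, and features of 1 symbol were averaged. Of 17280 features, 14722 had 1 symbol in the platform annotation, 1 had several and 2557 had none. Means were set against 0 by limma 3.58.1 under R 4.3.3 (lmFit and eBayes, two-sided, Benjamini-Hochberg over all 10081). The procedure was tested on simulated data with independent noise on each array. That simulation held no error shared through the pool and no dye bias, so it cannot speak to either. Each array is 1 mouse per the labels. With no dye swap in the labels, dye bias of single genes does not cancel.

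Genes named by rule beyond the 6 were, per pathway list, the 4 farthest from 0 among those past the threshold (3 per marker list). All measured VEGF and angiopoietin genes, and the 3 nearest in pattern to each of the 6, were named too. Sele, Epas1, Foxc1, Sox7, Sox17, Sox18, Aqp5 and Pdpn were named outside this rule, and their dependence on the processing is not described. Statements on other genes were chosen after their values were seen. The genes and lists were chosen with earlier results of these data known.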

Additional observations from a re-analysis of the deposited data

Results flagged for a closer look

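Among 57 genes named by rule, 2 had 1 mouse far from the others, by a test of the gap to the nearest value that flags about 1 group in 20 by chance. None of the 6 endothelial genes was among them. Ly6g6e, a Ly6 relative of Ly6c1 measured on 4 arrays, stood at −0.762 in mouse 5 and between −0.322 and −0.309 in the others. F13a1, among the monocyte markers, stood at −1.561 in mouse 1 and between −0.574 and −0.189 in the others.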

How the results depend on the processing

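The calls and sides of Pecam1, Tmem100, Tek and Ly6c1 held in every alternative tried (no centring, features on at least 3 or on all 5 arrays, each feature alone, scaling between arrays, a plain test, meaning a one-sample test without moderation, a 1.2-fold minimum, the pool as 1 control mouse, and each mouse left out). Some of this was fixed in advance. Each gene has 1 feature with values on all 5 arrays, so the array filters and single features could change only the adjusted p. The plain test, the minimum and the pool setting also leave the mean as it is. With all 5 mice on 1 side of 0, neither scaling nor leaving out a mouse could change a side. Tie1 stayed at 0.88 but missed the threshold with the plain test, the 1.2-fold minimum and the pool as 1 control mouse, and Flt1, at 0.80, missed it with the pool as 1 control mouse. Without each mouse in turn, means lay from 2.36 to 2.56 for Pecam1, 2.21 to 2.39 for Tmem100, 1.46 to 1.601 for Tek, 0.64 to 1.08 for Tie1, 0.67 to 0.949 for Flt1 and −1.59 to −1.501 for Ly6c1, and 5 or 6 of the 6 passed. Tek minus Tie1 ranged from 0.42 to 0.85. Vegfb lay between −0.198 and 0.077 and turned above 0 without mouse 2. Of 74 measured genes on the pathway lists, 45 passed, against 27 with the plain test, 21 with the 1.2-fold minimum and 3 with the pool as 1 control mouse, and 38 to 41 without each mouse. Over everything tested, 5002 passed, against 1847 with the 1.2-fold minimum and 513 with the pool as 1 control mouse. The number passing the plain test over everything was not counted.

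With the pool as 1 control mouse, the genes named from lists that passed were Pgf, Ets1, Ace, Cx3cr1, C1qb and Sema3e. With the plain test, 3 VEGF and angiopoietin, 5 junction, 2 BMP, 5 transcription factor, 8 tone, 1 Notch and 2 Ly6 genes passed. With the 1.2-fold minimum it was 2 VEGF and angiopoietin, 3 junction, 2 BMP, 4 transcription factor, 5 tone, 1 Notch and 3 Ly6 genes. Vcam1, of the leukocyte adhesion list, passed in both settings. The minimum was passed by 18.3% of everything tested. For the plain test that share was not counted, so its counts here cannot be read against a background. Angpt2, Tjp1, Bmp4, Smad4, Dll4, Nr2f2, Ly6g6e, Ramp2, Mmrn1, Tagln, Pf4, Gp9, F13a1 and Cd2 missed the threshold in both, Foxf1 and Psca in the plain test and Ptprb and Kcnj8 with the minimum. The plain test called 3 endothelium, 3 mural, 1 platelet, 3 macrophage and 0 T cell markers. No paired analysis was possible because the series has 1 group and its only control is the shared pool.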

Other observations

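Lymphatic and mural cells of the vessel wall were also measured through markers. Of 6 lymphatic markers 4 were measured. Of those, 2 passed above 0, 1 passed below 0 and 1 did not pass, against 25.8% above 0 and 23.9% below 0 of everything tested. Lyve1, the hyaluronan receptor of lymphatic endothelium and of some macrophages, stood at 0.999, 2.01, 1.75, 1.76 and 1.28 in mice 1 to 5, with a mean of 1.56 ± 0.41 (SD, n = 5; adjusted p = 0.000232), close to that of Tek. Flt4, the lymphatic VEGF receptor, lay on the other side at −0.54 ± 0.13 in the same mice, and Mmrn1 was near 0 at 0.19 ± 0.14 (adjusted p = 0.0457; lost without mouse 1, 2, 4 or 5). The markers of lymphatic endothelium thus did not lie on 1 side.

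Of 10 mural cell markers 8 were measured, with a median of −0.053. Of those, 2 passed above 0, 3 passed below 0 and 3 did not pass, against 25.8% above 0 and 23.9% below 0 of everything tested. Acta2, smooth muscle actin, averaged 0.71 ± 0.33, the pericyte potassium channel gene Kcnj8 −0.41 ± 0.23 and the actin-binding gene Tagln −0.44 ± 0.34 (adjusted p = 0.0205; lost without mouse 1, 2 or 3). Without mouse 2 or mouse 3 the list had 3 calls, against 5 with all mice. Pecam1, Tmem100 and Tek were farther from 0 than any of these mural markers.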
